A study of Homo sapiens with 18 samples.

Results

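The genes described here are 33 genes that recur as mutated drivers of chronic lymphocytic leukemia (CLL), chosen by name from the 56609 gene symbols of the count table. They cover RNA processing, DNA repair, the Notch pathway, the RAS pathway, chromatin and B cell regulation. RNA was sequenced from 3 established CLL cell lines, HG3, MEC2 and PCL12, to ask how the leukemic cells answer stimulation of Toll-like receptor 9 (TLR9). In each line, 3 libraries came from cells given the class B oligonucleotide ODN-2006 (CpG) at 2.5 μg/ml for 4 h and 3 from unstimulated cells, which makes 18 libraries in 6 groups. All lines are EBV-positive, so the controls carry the virus too. MEC2 has mutated IGHV genes, and HG3 and PCL12 have unmutated ones. Each line stands for 1 patient's clone, so a difference between lines is a difference between 3 clones and not between classes of CLL. The counts measure transcript levels, and the mutations of these genes were not analysed here.

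CLL drivers are genes in which somatic mutations recur across patients, and most encode proteins that B cells use constantly, such as splicing factors, DNA damage kinases and chromatin enzymes. A mutation can change such a protein without any change in the level of its transcript. CpG oligonucleotides are sensed by TLR9 in endosomes, and the receptor signals through MyD88 to NF-κB and MAP kinases.

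Total counts ran from 20382943 to 67308932 per library, and levels are given as CPM, the counts of a gene per 1000000 counts of a library after TMM scaling. A count of 3, taken as the floor, equals 0.0429 to 0.155 CPM in these libraries, and this covers counting error only. All 9 B cell markers tested exceeded a mean of 1 CPM over the 6 libraries of each line, as did all 4 plasma cell markers and all 3 epithelial markers, the last at 1.02 to 3.95 CPM. Of 6 T cell markers 1 did in each line (TRAC), of 4 monocyte markers 0 and of 3 fibroblast markers 1 (COL1A1, 46.3 CPM in HG3). Of 4 NK cell markers, 1, 3 and 2 did in HG3, MEC2 and PCL12. Of 4 markers often used for CLL, 4, 1 and 2 did. CD5, a surface antigen typical of CLL cells, had means of 47.0 CPM in HG3, 0.0874 CPM in MEC2 and 0.754 CPM in PCL12. 2 libraries stood apart by their mitochondrial transcripts, unstimulated HG3 replicate 2 (20.2% of counts) and CpG-stimulated MEC2 replicate 2 (19.7%), where the remaining 16 had 2.82% to 9.28%. Over 45 genes that are high in MEC2 and nearly absent from PCL12 replicate 1, replicates 2 and 3 of PCL12 stood at 29.0% to 31.3% of the MEC2 level, and replicate 1 at 2.26% and 2.36%. These 45 genes were picked for being low in replicate 1. If replicates 2 and 3 hold RNA of MEC2 cells, a PCL12 mean over 3 replicates is not a value of PCL12 alone, which was not tested, so members' PCL12 differences that were called or near the threshold are also given with replicate 1 alone. That PCL12 arm then holds 1 library, which is assumed to vary like the other groups, and its p values have no replicate check within PCL12. No label says whether the replicates are separate cultures, so P values measure the spread between these libraries, which may be technical.

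Every driver gene was measured above 1 CPM in each line. All 33 members passed the filter of 10 counts in all, 0 of 99 member and line pairs had an unstimulated mean under 1 CPM, and the lowest count of a member in any library was 63. Of the 33 members, 17 stayed within 1.5-fold between the highest and the lowest line mean and 7 exceeded 2-fold, or 8 with PCL12 taken from replicate 1. The most even were MED12 of the Mediator complex (1.09-fold), GNB1, a G protein beta subunit (1.10-fold), KMT2D, a histone methyltransferase, and SF3B1, a core splicing factor (both 1.13-fold). Only SAMHD1 lay under 25% of its highest line mean, in HG3. KLHL6 in MEC2 and ZNF292 in PCL12 joined it when PCL12 was taken from replicate 1. The matching shares over all genes were not computed, so these counts describe the members and do not set them apart from other genes.

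By the quasi-likelihood test of edgeR, adjusted over the 31872 genes tested (Benjamini-Hochberg), 4 of 33 members differed between unstimulated MEC2 and HG3 at an adjusted p under 0.05, 3 of them higher in MEC2. Of all genes tested, 9.78% were called in this comparison (4.81% higher and 4.97% lower), and 16.2% of those with a mean of at least 10 CPM. For PCL12 against HG3, 4 members were called, 3 of them higher in PCL12, where 9.44% of all genes were called (4.87% higher and 4.57% lower) and 14.6% of those with at least 10 CPM. Between MEC2 and PCL12, 2 members were called, both lower in MEC2, where 2.05% of all genes were called (0.524% higher and 1.53% lower) and 3.79% of those with at least 10 CPM. The members' own shares were 12.1%, 12.1% and 6.06%. Their median absolute log2 differences were 0.38, 0.30 and 0.28 in the 3 comparisons, against 0.39, 0.36 and 0.26 over genes with at least 10 CPM. With sign, the members' medians were 0.28, 0.06 and 0.21, against 0.03, 0.01 and 0.03. Of the 33 members, 24, 19 and 26 were higher in the line named first, called or not, against 51.6%, 51.0% and 53.4% of those genes. The part of unstimulated HG3 replicate 2, low for most members, was not tested.

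**Figure D1:**
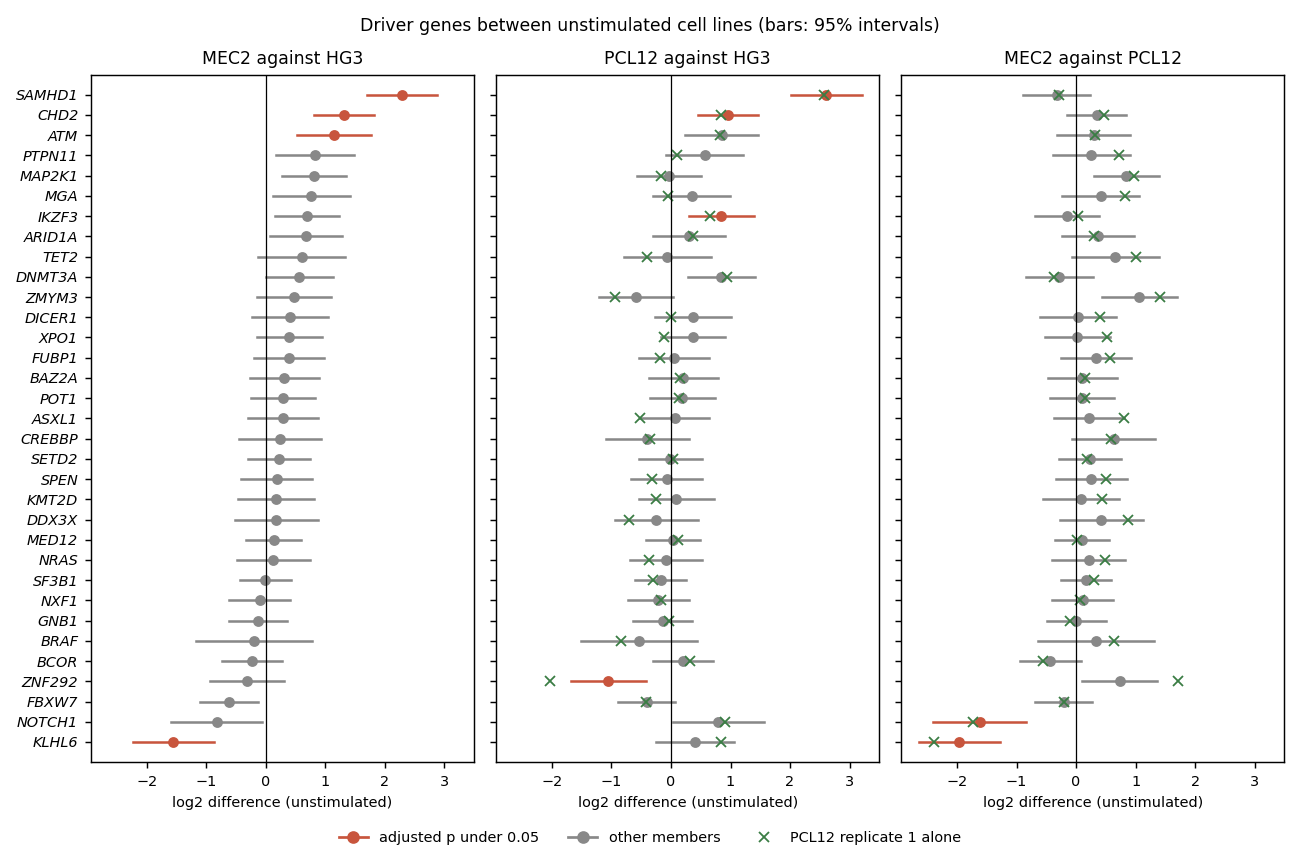
Log2 differences between unstimulated lines for the 33 driver genes, with 95% intervals from edgeR, orange where the adjusted p was under 0.05. Crosses give PCL12 replicate 1 alone. SAMHD1 is at the right in both comparisons with HG3 (2.29 and 2.61), and KLHL6 at the left in both comparisons of MEC2 (-1.56 and -1.96).

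SAMHD1 (chromosome 20, 36890229 to 36951893, minus strand, GRCh38) encodes a phosphohydrolase that breaks down deoxynucleotides. In these bulk libraries, fewer expressing cells and less RNA per cell cannot be told apart. In HG3 it stood at 15.4, 10.4 and 11.5 CPM in the 3 unstimulated libraries. In MEC2 it stood at 57.0, 52.7 and 72.3 CPM. In PCL12 it stood at 74.3, 70.5 and 83.1 CPM. All HG3 libraries were therefore far below all libraries of the other lines, while the ranges of MEC2 and PCL12 overlapped. The level was 4.88-fold higher in MEC2 than in HG3 (log2 difference 2.29, SE 0.29, adjusted p = 3.02e-06, n = 3 and 3 libraries). It was 6.10-fold higher in PCL12 than in HG3 (2.61, SE 0.29, adjusted p = 5.04e-07), and replicate 1 of PCL12 alone gave 2.58 (adjusted p = 1.49e-05). MEC2 and PCL12 were not distinguished: SAMHD1's log2 difference between them was -0.32. RRM2, a subunit of the ribonucleotide reductase that makes deoxynucleotides, was also higher in MEC2 (150 ± 35.3 CPM, SD, n = 3) than in HG3 (58.9 ± 22.5 CPM), with a log2 difference of 1.35 (adjusted p = 0.00705). In PCL12, RRM2 stood at 92.4, 75.6 and 175 CPM, overlapping HG3 (84.6, 49.6 and 42.5 CPM), and was not called against HG3.

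ATM (chromosome 11, 108223044 to 108369102, plus strand), the kinase that answers DNA double-strand breaks, stood at 152, 60.7 and 110 CPM in unstimulated HG3, at 294, 238 and 184 CPM in MEC2 and at 191, 197 and 195 CPM in PCL12. The HG3 range lay below both others. ATM was 2.22-fold higher in MEC2 than in HG3 (log2 difference 1.15, SE 0.30, adjusted p = 0.0124). The call was lost without unstimulated HG3 replicate 2, the library rich in mitochondrial counts (log2 difference 0.88, adjusted p = 0.0515), and without unstimulated MEC2 replicate 1 (0.99, adjusted p = 0.0685). PCL12 against HG3 missed the threshold (log2 difference 0.85, adjusted p = 0.0756), also with PCL12 replicate 1 alone (0.83, adjusted p = 0.370). POT1, which caps telomeres, had means of 27.2, 33.2 and 31.1 CPM in HG3, MEC2 and PCL12, and no contrast called it.

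KLHL6 (chromosome 3, 183487551 to 183555706, minus strand) encodes a ubiquitin ligase adaptor needed for B cell receptor signalling and germinal centre formation. Its unstimulated levels were 11.8, 13.8 and 17.4 CPM in MEC2. They were 41.8, 20.6 and 64.1 CPM in HG3. They were 75.5, 46.0 and 46.3 CPM in PCL12. MEC2 lay below both other lines without overlap, while HG3 and PCL12 overlapped. KLHL6 was 2.94-fold lower in MEC2 than in HG3 (log2 difference -1.56, SE 0.33, adjusted p = 0.00197) and 3.89-fold lower than in PCL12 (-1.96, SE 0.33, adjusted p = 0.000815). With PCL12 replicate 1 alone, the highest of the 3 PCL12 libraries, the difference from PCL12 was -2.39 (adjusted p = 0.00034). KLHL14, a related gene of the same family, had 0 counts in the 3 unstimulated HG3 libraries and a mean of 1.80 ± 0.807 CPM in MEC2 (SD, n = 3), so no fold is given.

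NOTCH1 (chromosome 9, 136494433 to 136546048, minus strand), the receptor whose cleaved domain enters the nucleus as a transcription factor, was the other member called lower in MEC2 than in PCL12. Its unstimulated levels were 136, 127 and 96.9 CPM in MEC2, 398, 495 and 214 CPM in PCL12 and 165, 125 and 349 CPM in HG3. PCL12 lay above MEC2 in all libraries, and HG3 overlapped both. NOTCH1 was 3.07-fold lower in MEC2 than in PCL12 (log2 difference -1.62, SE 0.38, adjusted p = 0.0206). With PCL12 replicate 1 alone the difference was -1.73 and the adjusted p 0.0804, and the call was also lost without any 1 of 5 of the 6 libraries compared, all but PCL12 replicate 3 (adjusted p up to 0.107), and with replicate numbers as a block shared across lines (-1.61, adjusted p = 0.0594). Replicate 3 stood apart from replicates 1 and 2 of its own line in HG3, where it was highest, and in PCL12, where it was lowest, in stimulated and unstimulated cells alike. Of the other genes of the Notch and transcription group, FBXW7, a ubiquitin ligase component that marks cleaved NOTCH1 for degradation, had means of 97.6, 63.5 and 73.5 CPM in HG3, MEC2 and PCL12. SPEN, a corepressor at Notch targets, ranged from 246 to 293 CPM over the line means, and MED12 from 76.0 to 83.3 CPM. None of these 3 was called.

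The stretches of 250 bases before the RefSeq starts of KLHL6 and NOTCH1 (GRCh38.p14) are shown because these are the members called lower in MEC2 than in PCL12, and they differ in base makeup. They are written 5′ to 3′ on the gene's strand, with CG dinucleotides in capitals, from chr3:183555707-183555956 and chr9:136546049-136546298.
KLHL6: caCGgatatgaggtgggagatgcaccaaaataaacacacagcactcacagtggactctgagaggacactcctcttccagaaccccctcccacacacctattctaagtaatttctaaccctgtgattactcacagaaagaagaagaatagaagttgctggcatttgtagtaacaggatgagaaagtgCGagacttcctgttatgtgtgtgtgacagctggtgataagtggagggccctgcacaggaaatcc
NOTCH1: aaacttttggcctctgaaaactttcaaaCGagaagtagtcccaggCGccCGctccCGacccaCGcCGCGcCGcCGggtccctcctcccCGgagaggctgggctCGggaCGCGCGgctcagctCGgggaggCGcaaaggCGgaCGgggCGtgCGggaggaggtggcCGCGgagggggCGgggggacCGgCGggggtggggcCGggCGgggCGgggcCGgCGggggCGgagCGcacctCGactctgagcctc
The KLHL6 stretch holds 2 CG dinucleotides, and 14.7% of 35116 RefSeq promoters hold fewer. The NOTCH1 stretch holds 33, and 91.9% of promoters hold fewer. Over the 58 promoter entries found for 30 members, the median was 21 CG dinucleotides, against 11 over all promoters. Several entries of 1 gene overlap, and nothing in the counts measures these promoters, so these numbers describe sequence only.

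Among the chromatin genes, CHD2 (chromosome 15, 92886203 to 93027996, plus strand), a chromatin remodeller, differed in both comparisons with HG3. It stood at 104, 71.1 and 122 CPM in unstimulated HG3, at 258, 245 and 232 CPM in MEC2 and at 177, 210 and 192 CPM in PCL12. The 3 lines did not overlap. CHD2 was 2.48-fold higher in MEC2 than in HG3 (log2 difference 1.31, SE 0.25, adjusted p = 0.000566). It was 1.95-fold higher in PCL12 than in HG3 (0.96, SE 0.25, adjusted p = 0.0104), but PCL12 replicate 1 alone gave 0.84 with an adjusted p of 0.245. ZMYM3, a zinc finger protein of histone deacetylase complexes, was lowest in PCL12 at 22.9, 23.6 and 41.4 CPM, against 51.3, 60.1 and 72.3 CPM in MEC2, and missed the threshold (log2 difference of MEC2 over PCL12 1.06, adjusted p = 0.0724), also with PCL12 replicate 1 alone (1.42, adjusted p = 0.122). DNMT3A, a DNA methyltransferase, had its lowest mean in HG3, where its 3 libraries (47.1, 22.7 and 37.4 CPM) lay below the 6 of the other lines (49.2 to 68.4 CPM), and PCL12 against HG3 missed the threshold at an adjusted p of 0.0518, or 0.213 with PCL12 replicate 1 alone. The other 8 of 11 chromatin genes, the histone modifiers SETD2, KMT2D and CREBBP, the remodelling subunits ARID1A and BAZ2A, the Polycomb-related ASXL1 and BCOR and the DNA demethylase TET2, were within 1.13-fold to 1.59-fold over the line means, and none was called.

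IKZF3 and ZNF292 were the other members called against HG3. IKZF3 (chromosome 17, 39757718 to 39864312, minus strand), the lymphoid transcription factor Aiolos, stood at 288, 144 and 206 CPM in unstimulated HG3, at 324, 322 and 382 CPM in MEC2 and at 334, 314 and 501 CPM in PCL12. HG3 lay below both other lines without overlap, and those 2 overlapped each other. It was 1.80-fold higher in PCL12 than in HG3 (log2 difference 0.85, SE 0.26, adjusted p = 0.0397), and PCL12 replicate 1 alone gave 0.65 with an adjusted p of 0.473. The IKZF3 call was also lost without unstimulated HG3 replicate 2 (log2 difference 0.66), HG3 replicate 3 (0.82), PCL12 replicate 3 (0.62) or CpG-stimulated HG3 replicate 2 (0.85), and without both libraries rich in mitochondrial counts (0.63, adjusted p = 0.0904). ZNF292 (chromosome 6, 87151803 to 87265943, plus strand), a large zinc finger protein, stood at 23.8, 41.4 and 74.9 CPM in PCL12 and at 102, 68.1 and 121 CPM in HG3, and PCL12 replicate 3 overlapped HG3. It was 2.08-fold lower in PCL12 than in HG3 (log2 difference -1.06, SE 0.31, adjusted p = 0.0264). PCL12 replicate 1 alone, the library with the lowest ZNF292 level of the 9 unstimulated ones, gave -2.03 (adjusted p = 0.00328) and, for MEC2 over PCL12, 1.70 (adjusted p = 0.0249), both from 1 PCL12 library. Without unstimulated PCL12 replicate 1 the ZNF292 difference was -0.74 (adjusted p = 0.146), and the call was also lost without PCL12 replicate 2 (-0.98), HG3 replicate 1 (-1.01) or HG3 replicate 3 (-0.86), and with scaling by library totals (-0.90, adjusted p = 0.0610). MGA, which represses MYC targets through the E-box, had means of 73.0, 124 and 93.2 CPM in HG3, MEC2 and PCL12 and was not called.

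**Figure D2:**
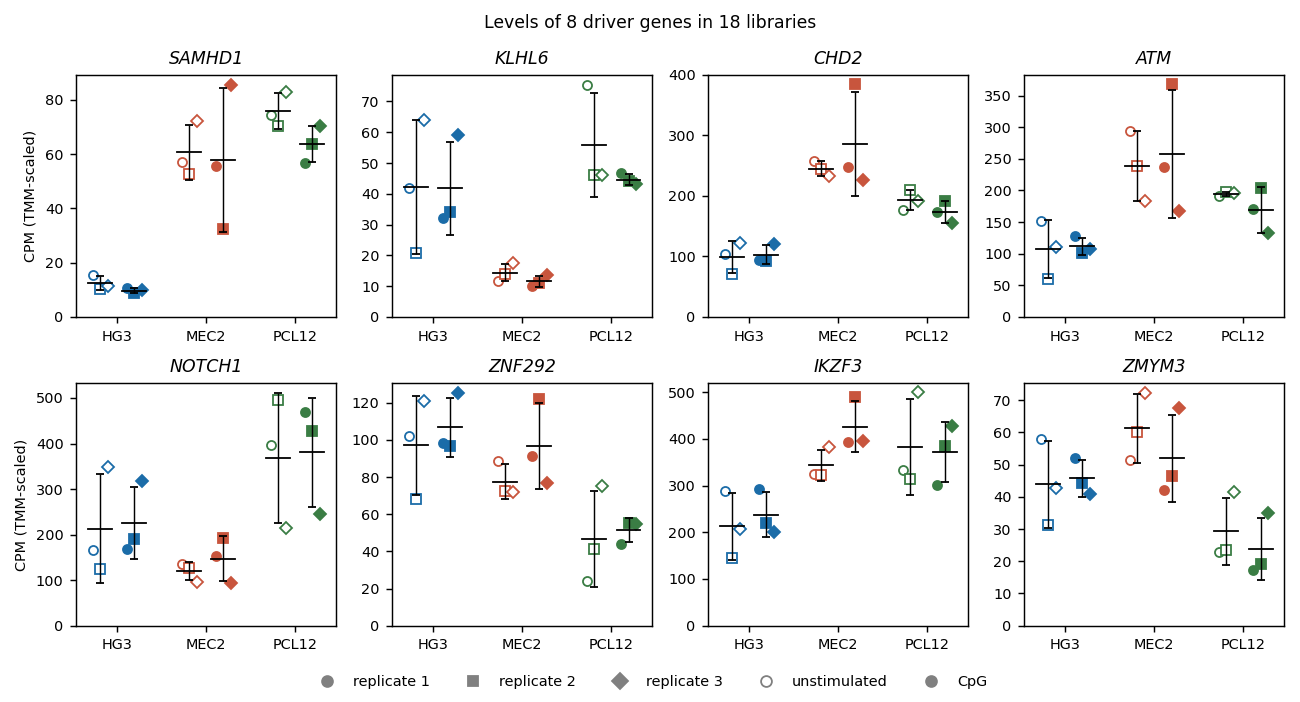
CPM of 8 driver genes in all 18 libraries, by line, with open symbols for unstimulated and filled symbols for CpG-stimulated libraries, the symbol shape giving the replicate. Horizontal bars are means and error bars SD of 3 libraries. SAMHD1 is low in all 6 HG3 libraries, KLHL6 in all 6 MEC2 libraries, and the open and filled symbols of a line overlap in most panels.

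The RNA processing and RAS pathway genes held no call between lines. The splicing factor SF3B1 had unstimulated levels of 582 ± 10.8, 578 ± 47.9 and 516 ± 58.8 CPM in HG3, MEC2 and PCL12 (SD, n = 3). The RNA helicase DDX3X (362 to 484 CPM over the line means), the exportin XPO1 (276 to 362 CPM), the mRNA export factor NXF1 (143 to 165 CPM), the nucleic acid-binding FUBP1 (188 to 246 CPM) and the microRNA-processing enzyme DICER1 (110 to 145 CPM) ranged over at most 1.34-fold. In the RAS pathway, MAP2K1, the kinase MEK1, stood at 140, 122 and 122 CPM in MEC2, at 81.9, 47.5 and 89.8 CPM in HG3 and at 65.2, 65.7 and 82.7 CPM in PCL12. MEC2 lay above both others, but the comparison with HG3 missed the threshold (log2 difference 0.81, SE 0.26, adjusted p = 0.0512). The kinase BRAF stood at 3.25 CPM in unstimulated HG3 replicate 2, against 21.3 and 30.1 CPM in the other HG3 replicates. The GTPase NRAS and the phosphatase PTPN11 had line means of 130 to 150 CPM and 133 to 236 CPM.

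The genes tied to the members in pathways or by descent gave 11 calls of 91 between MEC2 and HG3 (7 higher, 4 lower), 9 between PCL12 and HG3 (7 higher, 2 lower) and 1 between MEC2 and PCL12 (lower in MEC2). These counts stand beside the 9.78%, 9.44% and 2.05% of all genes called. This list of paralogs and partners was put together with earlier results of these data known.

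The line differences were also read in the CpG-stimulated libraries, which are other libraries of the same lines. They are paired by replicate number with the unstimulated ones, and deviations from the group means correlated within pairs (0.129 to 0.757). Both sets also share 1 fit, so the stimulated libraries are not an independent repeat. MEC2 and HG3 differed in 5 members (9.13% of all genes called, 15% of those with at least 10 CPM), namely SAMHD1 (2.58, adjusted p = 5.83e-07), CHD2, KLHL6, ATM and IKZF3. All 4 members called in unstimulated cells were among them. PCL12 and HG3 differed in 2, SAMHD1 and ZNF292, which were 2 of the 4 called in unstimulated cells (8.65% of all genes called, 13.5% of those with at least 10 CPM). For SAMHD1, PCL12 replicate 1 alone gave 2.55 (adjusted p = 1.7e-05). MEC2 and PCL12 differed in 1, KLHL6 (log2 difference -1.95, 1.93% of all genes called, 3.73% of those with at least 10 CPM), and PCL12 replicate 1 alone gave -2.02 for it (adjusted p = 0.00360). NOTCH1 was 2.59-fold lower in stimulated MEC2 (153, 193 and 94.7 CPM) than in stimulated PCL12 (469.5, 427 and 245 CPM), without overlap, and missed the threshold (log2 difference -1.37, adjusted p = 0.0590; replicate 1 alone -1.68, adjusted p = 0.107). The sign was the same in both treatments for 29, 28 and 27 of 33 members in the 3 comparisons. The share of all genes with the same sign was not computed. CpG-stimulated SAMHD1 stood at 10.5, 8.77 and 9.81 CPM in HG3 against 32.6 to 85.6 CPM in MEC2 and 56.9 to 70.3 CPM in PCL12. CpG-stimulated KLHL6 stood at 10.1, 10.9 and 13.6 CPM in MEC2 against 32.1 to 59.1 CPM in HG3 and 43.0 to 46.7 CPM in PCL12. ATM's call in stimulated cells was lost without HG3 replicate 2 (log2 difference 1.14) or MEC2 replicate 2 (0.86), the latter rich in mitochondrial counts. IKZF3's was lost in 8 of 18 fits that each left out 1 library, namely each stimulated MEC2 library, stimulated HG3 replicates 2 and 3, unstimulated MEC2 replicates 1 and 2 and stimulated PCL12 replicate 2 (log2 differences 0.73 to 0.89), and with PCL12 replicate 1 alone (adjusted p = 0.0509). ZNF292's was lost without stimulated HG3 replicate 3 or any stimulated PCL12 library (-1.11 to -0.92), and with PCL12 replicate 1 alone (-1.28, adjusted p = 0.0836).

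CpG changed none of the 33 driver genes detectably after 4 h. In edgeR without the pairing of libraries, 0 members passed an adjusted p under 0.05 within any of the 3 lines or averaged over them, and 0 had an unadjusted P under 0.05. Of all genes tested, the called share was 0.00314% for HG3 and again for MEC2, 0% for PCL12 and 0.00941% over the average. An unadjusted P under 0.05 was found for 3.73%, 2.46%, 2.09% and 4.04% of all genes. HG3 gave members' log2 changes between -0.36 and 0.29. MEC2 gave -0.33 to 0.49, and PCL12 -0.33 to 0.31. The 95% interval of the change lay within 1 log2 unit of 0 for 32, 30 and 32 of 33 members, and averaged over the lines for all 33. Smaller changes may have been missed. The largest estimate was that of DNMT3A in MEC2 (log2 change 0.49, 95% interval -0.08 to 1.05, adjusted p = 1). DNMT3A's log2 ratios of stimulated to unstimulated CPM in the 3 MEC2 pairs were 0.16, 1.11 and -0.004, so the estimate rests on pair 2, whose stimulated library is rich in mitochondrial counts. The response differed among the lines for 0 members, and for 0% of all genes (smallest unadjusted P of a member 0.400). DESeq2 and limma-voom also called 0 members in each of these comparisons.

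The replicate numbers pair a stimulated with an unstimulated library of a line. With this pairing as a block, edgeR called more genes in all (43, 106 and 15 in HG3, MEC2 and PCL12 and 177 over the average, or 0.135%, 0.333%, 0.0471% and 0.555%) but still 0 of the 33 members. The 95% interval then lay within 1 log2 unit of 0 for 32, 33 and 33 members and for all 33 over the average. The response then differed among the lines for 38 genes (0.119%), 0 of them members (smallest unadjusted P of a member 0.184). Members with an unadjusted P under 0.05 under the block were BRAF in HG3 (log2 change 0.67, 95% interval 0.13 to 1.20), DNMT3A in MEC2 (0.42), none in PCL12 and 3 over the average, ZNF292 (0.25), DNMT3A (0.25) and SAMHD1 (-0.25). The values of BRAF in HG3 and DNMT3A in MEC2 rest on pair 2 of each line, which holds a library rich in mitochondrial counts. These are 1, 1, 0 and 3 of 33, where 3.59%, 3.41%, 1.69% and 4.54% of all genes had such a P.

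Read pair by pair, the log2 ratio of stimulated to unstimulated CPM showed no member with 3 ratios of 1 sign and all of at least 0.5, in any line. Of genes with at least 10 CPM, 0.15%, 0.613% and 0.236% had such ratios in HG3, MEC2 and PCL12. Ratios of 1 sign throughout a line were found for 4 of 33 members in HG3 (2 higher, 2 lower), 11 in MEC2 (7 higher, 4 lower) and 6 in PCL12 (all lower), while 17.7%, 25.8% and 19.6% of genes with at least 10 CPM had them. SAMHD1, KLHL6 and ZMYM3 were the members with ratios of 1 sign throughout in 2 lines. The share of all genes with such ratios in 2 lines was not computed, so this count has no background beside it. For KLHL6 and ZMYM3 the 2 lines are MEC2 and PCL12, and PCL12 replicates 2 and 3 may hold RNA of MEC2 cells, which was not tested. SAMHD1 was lower after CpG in all pairs of HG3 (-0.54, -0.24 and -0.23) and PCL12 (-0.38, -0.14 and -0.24) and in 2 of 3 pairs of MEC2 (-0.03, -0.69 and 0.24). KLHL6 was lower in all pairs of MEC2 (-0.22, -0.34 and -0.35) and PCL12 (-0.69, -0.06 and -0.10). ZMYM3 was lower in all pairs of MEC2 (-0.28, -0.37 and -0.10) and PCL12 (-0.40, -0.29 and -0.24). The other members lower in all MEC2 pairs were POT1 (-0.21, -0.62 and -0.21) and MAP2K1 (-0.11, -0.73 and -0.15), and those in PCL12 were KMT2D, BAZ2A and CHD2 (-0.31 to -0.03). In HG3, NXF1 was lower in all pairs, by little (-0.0004, -0.03 and -0.07). DNMT3A (0.10, 0.84 and 0.05) and BRAF (0.07, 2.14 and 0.001) were higher in all HG3 pairs, mostly by pair 2. The 7 members higher in all MEC2 pairs were FBXW7, BCOR, IKZF3, XPO1, ZNF292, DDX3X and MED12, among which FBXW7 had ratios of 0.32, 0.27 and 0.12, BCOR 0.31, 0.22 and 0.11, and IKZF3 0.28, 0.60 and 0.05. None of these passed the test, and in HG3 KLHL6 and ZMYM3 had pairs of both signs.

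**Figure D3:**
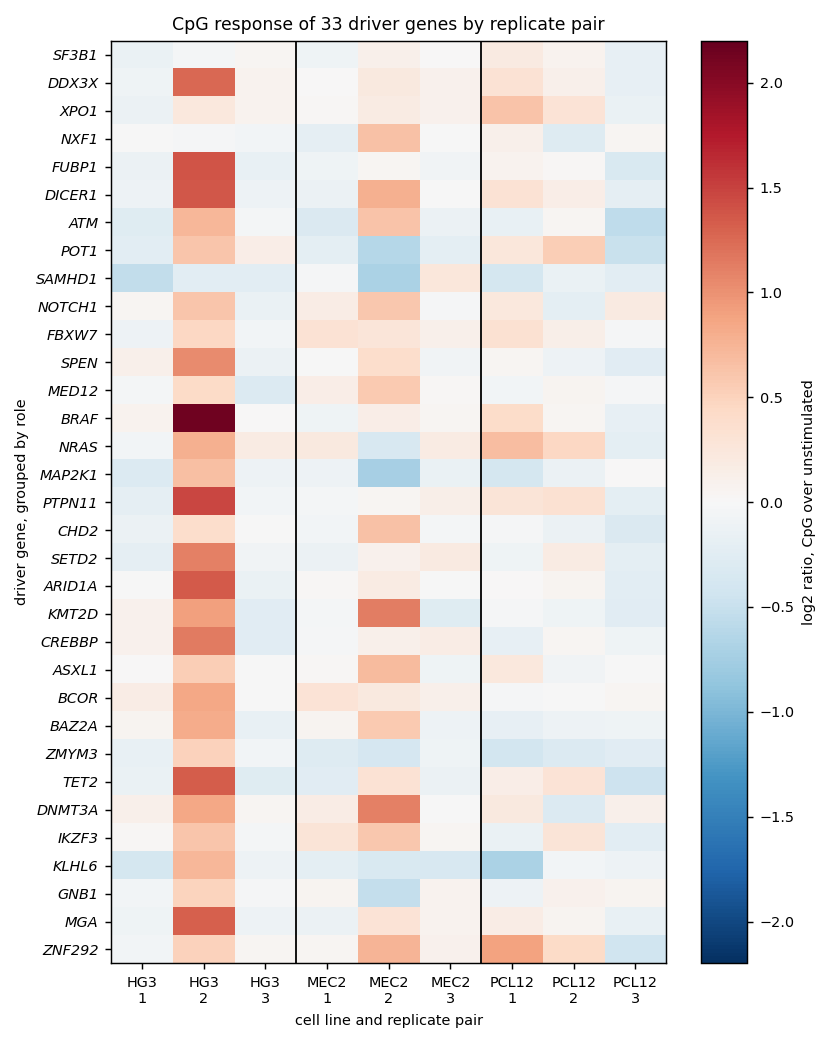
Log2 ratio of CpG-stimulated to unstimulated CPM for 33 driver genes (rows, by role) in the 3 replicate pairs of each line (columns), red for higher and blue for lower after CpG. The column of HG3 pair 2 is red for 30 of 33 genes, while pairs 1 and 3 of HG3 are red for 10 and 8.

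Ratios over 1 occurred in 2 pairs only, for 11 members in HG3 pair 2 and for 2 in MEC2 pair 2 (DNMT3A 1.11 and KMT2D 1.13), and these pairs hold the 2 libraries rich in mitochondrial counts. The share of all genes with ratios over 1 in these pairs was not computed. The highest was BRAF in HG3 pair 2, at 2.14, against 0.07 in pair 1 and 0.001 in pair 3. The members' median ratio in HG3 was -0.09, 0.73 and -0.06 in pairs 1, 2 and 3. Over genes with at least 10 CPM it was -0.05, 0.24 and -0.02. In MEC2 the members' medians were -0.03, 0.22 and -0.004, against -0.04, -0.002 and -0.01 over genes with at least 10 CPM. In PCL12 they were 0.07, 0.05 and -0.19, against 0.001, 0.03 and -0.07.

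Unstimulated HG3 replicate 2 gave the lowest level of its group for 31 of 33 members (93.9%), where it was lowest for 56.4% of genes with at least 10 CPM and for 81.6% of the 25% with the longest transcripts. The members' median log2 ratio to the mean of replicates 1 and 3 was -1.04. SF3B1 (0.05) and NXF1 (-0.01) were level with the other replicates, and BRAF (-2.81) and TET2 (-2.06) were furthest below. Over all genes with at least 10 CPM, the median ratio was -0.32, and it went down with transcript length, from 0.27 in the 25% of genes with the shortest transcripts (median 1461 bases) through -0.20 and -0.51 to -0.84 in the 25% with the longest (median 7192 bases). The driver genes are long: their median transcript has 6925 bases, and 25 of 33 fall in the longest of these 4 classes, 5 in the next, 3 in the one below and 0 in the shortest. The part of transcript length and of the mitochondrial share in the results for HG3 was not tested. Leaving this library out kept SAMHD1, CHD2 and KLHL6 called between MEC2 and HG3.

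**Figure D4:**
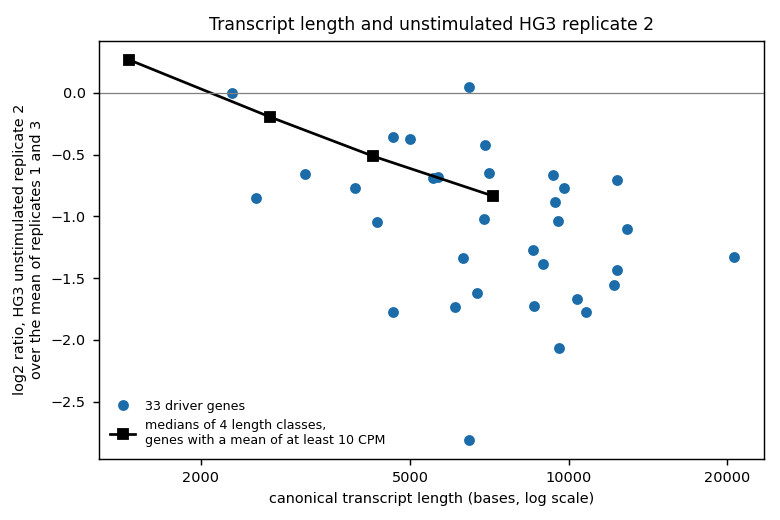
Log2 ratio of unstimulated HG3 replicate 2 to the mean of replicates 1 and 3 (vertical) against transcript length in bases (horizontal, log scale) for the 33 driver genes (circles) and as medians of 4 length classes of all genes with at least 10 CPM (squares). The class medians go from 0.27 to -0.84, and most driver genes lie at the long end and below 0.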

How the data were processed

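The counts were deposited by the authors as 1 table of raw counts per gene symbol for the 18 libraries, without normalization, and each column was matched to its sample by the description in the labels. The submitters' processing notes name FastQC, MultiQC, Trimmomatic, STAR and featureCounts and the build hg38. Versions, annotation and duplicate handling are not given in the sources used here. The labels name a Promega extraction kit and Lexogen stranded QuantSeq libraries and the published methods a Qiagen kit and a stranded reverse protocol, so levels were compared between libraries and not between genes. If QuantSeq was used, reads come from the 3′ ends of transcripts.

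Genes with at least 10 counts over all libraries were kept (31872 of the 42248 with at least 1 count). They were fitted in edgeR 4.0.16 (R 4.3.3) with TMM factors, 1 mean per group, robust quasi-likelihood estimation and 12 residual df, and P values were adjusted over all 31872 genes (Benjamini-Hochberg). A gene was called at an adjusted p under 0.05. All adjusted p and all unadjusted P values in the text come from edgeR fits across all genes unless another tool is named. Pair ratios are log2 ratios of CPM within a replicate number. Alternatives were DESeq2 1.42.0, limma-voom (limma 3.58.1, the package of the published methods), RLE factors, library totals, filterByExpr, no filter, a replicate block, PCL12 replicate 1 as groups of its own, each library left out in turn and, chosen after seeing the data, the 2 libraries rich in mitochondrial counts left out together. The fits of edgeR, DESeq2 and limma-voom without a block were tested on simulated counts in which some genes were changed in MEC2. That simulation held no CpG effect, no pairing, no mitochondria-rich library and no mixing of lines, so it does not show which CpG changes could be seen.

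The series' design text says that each replicate series held 1 stimulated and 1 unstimulated sample, so the numbers pair libraries within a line. Over genes averaging 10 CPM or more, deviations from the group means correlated within each pair. The 3 pairs of HG3 gave 0.431, 0.459 and 0.713. Those of MEC2 gave 0.300, 0.129 and 0.757, and those of PCL12 0.738, 0.652 and 0.598.

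The members, the lists and the tests were chosen with earlier results of these data known. All 33 members are accounted for. Those given in full were called between unstimulated lines or in a CpG comparison, were under 1 CPM or under 25% of their highest line mean, or had a nominal P under 0.01 with an absolute log2 change of at least 1 or 3 pair ratios of 1 sign each at least 0.5. Other genes of the pathways are named where they passed in a comparison of unstimulated lines in which their member was called. In stimulated cells, MRE11, a partner of ATM (log2 difference 0.86), RRM2 (1.20) and KLHL14 passed between MEC2 and HG3. RRM2 (1.03) also passed between stimulated PCL12 and HG3. Members that missed the threshold by little were chosen after their values were seen. Positions and transcript lengths are from GENCODE release 44 (GRCh38), with lengths for 95.8% of the genes with at least 10 CPM, and promoter stretches from RefSeq (GRCh38.p14), read with Python 3.11.15. Reads of BRAF could be shared with its pseudogene BRAFP1, which had 0 to 9 counts per library.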

Additional observations from a re-analysis of the deposited data

How the results depend on the processing

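SAMHD1 in both comparisons with HG3, KLHL6 in both comparisons of MEC2 and CHD2 between MEC2 and HG3 were called in unstimulated cells under all 9 other settings and without each of the 18 libraries. No called difference changed direction. The number of members called moved by over 1.5 times as follows, and the cause was not tested. In unstimulated cells, DESeq2 gave 7 for MEC2 against HG3 and 4 for MEC2 against PCL12 (13.9% and 4.43% of all genes called), no filter gave 7 for PCL12 against HG3 (8.94%), PCL12 replicate 1 alone gave 2 there (4.96%), and leaving out the 2 libraries rich in mitochondrial counts gave 4 for MEC2 against PCL12 (3.4%). In CpG-stimulated cells, PCL12 against HG3 gave 4 with DESeq2, limma-voom, RLE factors or filterByExpr, 1 with PCL12 replicate 1 alone and 6 without the mitochondria-rich libraries, where all genes had 12.2%, 12.6%, 8.79%, 15.1%, 4.66% and 11.6% called in this order. MEC2 against PCL12 gave 4 with DESeq2, limma-voom or no filter, 3 with filterByExpr or without the mitochondria-rich libraries and 2 with RLE factors, library totals or the shared replicate block, where between 1.98% and 4.79% of all genes were called. Leaving out 1 library gave 3 to 5 members for MEC2 against HG3, 3 to 6 for PCL12 against HG3 and 1 to 4 for MEC2 against PCL12 in unstimulated cells, and 3 to 7, 1 to 4 and 1 to 3 in CpG-stimulated cells. The share of all genes called in these fits ran from 7.09% to 10.5%, 7.23% to 10.2% and 1% to 2.93% in unstimulated cells, and from 6.65% to 11.3%, 6.38% to 10.5% and 0.943% to 3.18% in stimulated cells. In unstimulated cells, the count for MEC2 against PCL12 was 4 without HG3 replicate 2 (2.93% of all genes called) or PCL12 replicate 3 (2.08%) and 1 without any MEC2 replicate or PCL12 replicate 1 or 2 (1% to 1.59%). In stimulated cells, the count for MEC2 against HG3 was 3 without replicate 2 of either line (6.91% and 6.68%), and that for PCL12 against HG3 was 1 without HG3 replicate 3 or PCL12 replicate 1 or 2 (6.38% to 7.11%) and 4 without MEC2 replicate 3 (8.92%) or unstimulated HG3 replicate 2 (10.5%). The count for MEC2 against PCL12, 1 in all, was 2 or 3 without any 1 of 8 libraries (stimulated HG3 and PCL12 replicate 3 and each unstimulated library of HG3 and PCL12, with 1.72% to 3.18% of all genes called). Every CpG comparison, and the count of members under 1 CPM in a line, stayed at 0 under all settings.

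With the pairing as a replicate block in each line, 0 members were called after CpG in every line, and for differences between lines, where the block could be fitted only as numbers shared across lines, NOTCH1 between MEC2 and PCL12 lost its call (log2 difference -1.61). Library totals took the call of ZNF292 between PCL12 and HG3 in unstimulated (-0.90) and stimulated cells (-0.94) and of IKZF3 between stimulated MEC2 and HG3 (0.83). IKZF3 between unstimulated PCL12 and HG3 lost its call without the mitochondria-rich libraries (0.63, adjusted p = 0.0904). Of the 99 mean pair ratios (33 members in 3 lines), 7 changed sign under library totals and 1, that of NXF1 in HG3, moved by 1 SD or more. With a prior count of 0.5, 0 of the 99 moved by 1 SD.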

Other observations

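Of 30 further CLL drivers in a list of their own, 9 were called between unstimulated MEC2 and HG3 (6 higher, 3 lower), 8 between PCL12 and HG3 (5 higher, 3 lower) and 2 between MEC2 and PCL12 (both lower in MEC2), beside 9.78%, 9.44% and 2.05% of all genes tested and 16.2%, 14.6% and 3.79% of those with at least 10 CPM. The list was put together with earlier results of these data known.

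Members that differed by at least 1.5-fold between MEC2 and PCL12 replicate 1 were read in the other PCL12 replicates. In unstimulated cells there were 11, and replicate 2 stood nearer to MEC2 than replicate 1 did for 10 of them and replicate 3 for 11. In CpG-stimulated cells there were 14, of which replicate 2 stood nearer for 14 and replicate 3 for 10. Since these members were picked by their distance in replicate 1, a move toward MEC2 is partly fixed by the choice.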
